A study of Mus musculus with 8 samples.

Results

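Apolipoproteins are the protein shell of the particles that carry fat through blood, and 10 of their genes were followed here through subcutaneous fat: Apoa1, Apoa2, Apoa4, Apob, Apoc1, Apoc2, Apoc3, Apod, Apoe and Apoh. They were picked by symbol from the 18022 genes of a table of read counts, with all 8 libraries kept, and the question put to them was which are read at a steady level and which are high in single libraries. The tissue came from C57BL/6J mice that had been back-crossed 4 times, 1 mouse to a library. There are 4 libraries (WT1 to WT4) labelled with the genotype Pkd1(flox/flox) and 4 (KO1 to KO4) with the genotype Pkd1adipo delta/delta. The first genotype names floxed alleles without a deletion, and the second a deletion in adipocytes. In these labels Pkd1 stands for protein kinase D1 (symbol Prkd1). The Cre driver behind the deletion, the age and sex of the mice and their diet are not stated in the sources used here.

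Liver and small intestine are the classical sources of plasma apolipoproteins. Apob is the scaffold of very low density lipoproteins and chylomicrons, Apoa1 and Apoa2 are the main proteins of high density lipoproteins, Apoa4 is secreted with chylomicrons by the small intestine, and the small C apolipoproteins set how fast lipoprotein lipase can clear triglyceride. Apoe, the ligand for receptor uptake of remnants, is also made by macrophages and adipocytes, while Apod is a lipocalin outside this exchange system that many tissues make, among them nerve and connective tissue.

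Libraries held between 2617755 and 2873457 reads. Adipocyte markers summed to between 35659.7 and 41356 CPM (reads scaled to a common library size, TMM-scaled counts-per-million) in the 8 libraries, led by Car3 and Fabp4, so the labelled tissue had its defining markers throughout. The targeted gene Prkd1 ran from 26.6 to 33.6 CPM in WT-labelled libraries and from 26.1 to 37.1 CPM in KO-labelled ones (log2 fold change 0.06, SE 0.15), which did not check the labels, and each direction below is one between labels. Some libraries stood apart. Of 35 liver markers in the table, 33 had their highest value in WT1 or WT4, and the list summed to 3159 CPM in WT1 and 2522 CPM in WT4, against 486 to 1457 CPM in the other 6. All 6 small intestine markers in the table, of 35 listed, had their highest CPM in WT2. Skeletal muscle markers summed to between 138 and 525 CPM in WT-labelled libraries and between 403 and 3081 CPM in KO-labelled ones.

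The 10 genes fell into 3 kinds by the ratio of the highest library to the median of the 8. Apoe (1.36), Apod (1.76) and Apoc1 (1.85) stayed at or under 2 and are called steady, as were 95.4% of the 14556 genes tested. Apoc2 (3.82) lay between 2 and 4, with 3.44% of genes. The other 6 exceeded 4, a range that holds 1.13% of genes: Apoc3 (4.23), Apoa1 (4.57), Apoh (5.5), Apob (6.99), Apoa2 (11.8) and Apoa4 (43.1). Just outside the limit of 4 was Apoc2 and just inside it Apoc3. The plot of CPM by library shows these shapes.

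**Figure D1:**
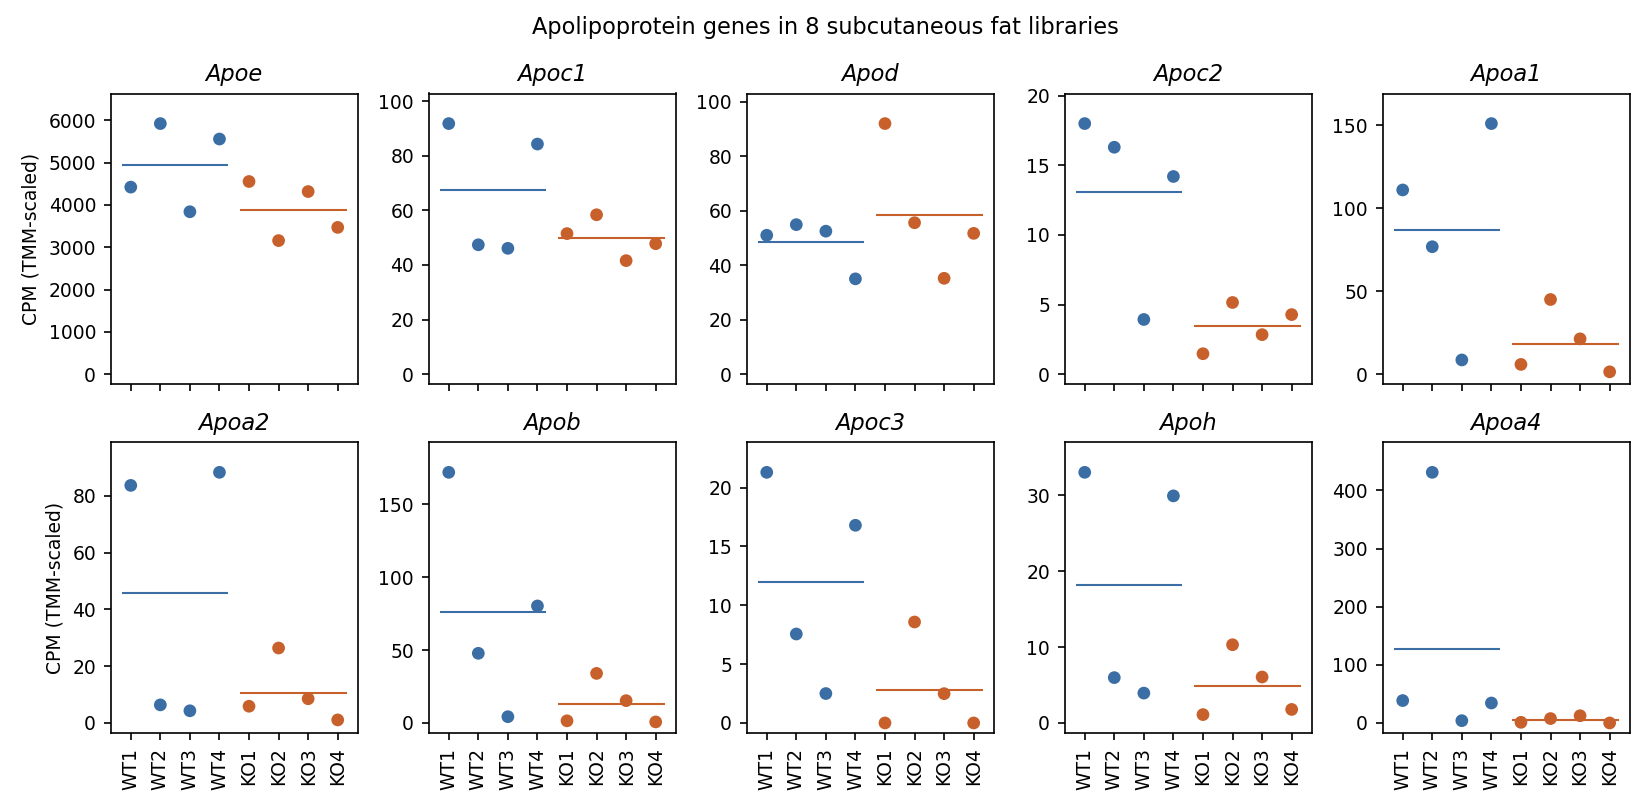
TMM-scaled CPM (linear axis, scaled to each gene) of the 10 apolipoprotein genes in each library, blue for WT and orange for KO, with a line at the mean of each label (n = 4). Apoe, Apoc1 and Apod lie within 2 times their median, whereas Apoa2 peaks in WT1 and WT4 (83.7 and 88.3 CPM) and Apoa4 in WT2 (431 CPM).

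Apoe was the most abundant of the 10 by far. It had 12048, 14884, 10744 and 15239 reads over WT1 to WT4, and 12382, 9200, 12141 and 9731 reads over KO1 to KO4. Its level was 4936 ± 971 CPM in WT-labelled libraries and 3875 ± 667 CPM in KO-labelled ones (SD, n = 4 each). WT2 and WT4 stood above all KO-labelled libraries, while WT1 and WT3 lay inside their range. The log2 fold change of Apoe was -0.35 (SE 0.18, 95% interval -0.74 to 0.04; edgeR quasi-likelihood adjusted p = 0.998; exact permutation p = 0.143, two-sided here and below). The summed macrophage markers were also highest in WT2, at 1529 CPM against 1086 to 1371 CPM in the other 7 libraries, with 8 of 16 markers highest there. WT4, which came next to WT2 in Apoe at 5559 CPM, was at the low end of these sums with 1086 CPM, as was KO1. The most read macrophage markers were Lyz2 and Csf1r, and the part of these markers in the level of Apoe was not tested.

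Apoc1, which is carried on several lipoprotein classes and sits next to Apoe in the genome, had 250, 119, 129 and 231 reads over WT1 to WT4. It had 140, 170, 117 and 134 reads over KO1 to KO4. WT1 and WT4 exceeded every other library, at 91.8 and 84.3 CPM against 41.6 to 58.4 CPM. Apoc1 thus had a steady base in the other 6 libraries, WT2 and WT3 included, and its 2 highest values in the libraries with high liver markers. Its log2 fold change was -0.44 (SE 0.23, 95% interval -0.93 to 0.06; edgeR quasi-likelihood adjusted p = 0.998; exact permutation p = 0.314), and 0.09 (SE 0.18) without WT1 and WT4.

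Apod was the only one of the 10 with a positive value. It had 139, 138, 147 and 96 reads over WT1 to WT4, and 250, 162, 99 and 145 reads over KO1 to KO4. KO1 was the highest library at 92.0 CPM, and the other 7 lay between 35.0 and 55.6 CPM with the labels intermingled. The log2 fold change of Apod was 0.28 (SE 0.26, 95% interval -0.30 to 0.86; edgeR quasi-likelihood adjusted p = 0.998; exact permutation p = 0.457), and it was -0.02 without KO1. Nerve and Schwann cell markers, 9 in the table, summed to 643 CPM in KO1 and to between 293 and 387 CPM elsewhere, with 5 of the 9 highest in KO1. Among them Mbp, a myelin protein, had 838 reads in KO1 and 220 to 372 in the others. Whether these cells bear on the level of Apod was not tested.

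Per kilobase of merged exons, the median level over the 8 libraries set Apoe first, at 2044 CPM per kb (1477 to 2771). Apoc1 came next at 66.7 CPM per kb (55.9 to 123), and its range did not meet that of Apoe. Apoa1 had a median of 26.8 CPM per kb with a range from 1.15 to 122, which spans both its neighbours in the order. Apod had 20.2 CPM per kb (13.6 to 35.7), below all values of Apoc1. Medians of the other 6 were 13.9 for Apoa2, 5.8 for Apoc2, 5.51 for Apoa4, 4.96 for Apoc3, 3.77 for Apoh and 1.77 for Apob, and their ranges overlapped. The order among them depends on which libraries are high.

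The structural protein of very low density lipoproteins and chylomicrons, Apob, had 469, 120, 12 and 220 reads over WT1 to WT4 and 4, 99, 43 and 2 reads over KO1 to KO4. WT1, WT2 and WT4 were above every KO-labelled library, and WT3 was inside their range. Its level was 76.1 ± 71.2 CPM in WT-labelled libraries and 12.9 ± 15.6 CPM in KO-labelled ones (SD, n = 4 each), and the log2 fold change was -2.54 (SE 1.25, 95% interval -5.56 to 0.47; edgeR quasi-likelihood adjusted p = 0.998; exact permutation p = 0.143). In bulk tissue, fewer cells of a type and less RNA per cell cannot be told apart. This holds for each gene below as well.

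Apoa1, the activator of cholesterol esterification on high density lipoproteins, had 302, 193, 24 and 415 reads over WT1 to WT4 and 16, 131, 60 and 4 reads over KO1 to KO4. Its log2 fold change was -2.22 (SE 1.07, 95% interval -4.80 to 0.35; edgeR quasi-likelihood adjusted p = 0.998; exact permutation p = 0.114). Apoa2, the second protein of these particles, had 83.7, 6.37, 4.29 and 88.3 CPM over WT1 to WT4 and 5.89, 26.4, 8.53 and 1.07 CPM over KO1 to KO4. Here WT2 was as low as WT3, so that only WT1 and WT4 stood above KO2. The log2 fold change of Apoa2 was -2.11 (SE 1.23, 95% interval -5.08 to 0.86; edgeR quasi-likelihood adjusted p = 0.998; exact permutation p = 0.286). Apoh, or beta-2-glycoprotein I, a phospholipid-binding plasma protein, had a similar order of libraries to Apoa2. It had 90, 15, 11 and 82 reads over WT1 to WT4 and 3, 30, 17 and 5 reads over KO1 to KO4, with a log2 fold change of -1.90 (SE 0.92, 95% interval -4.09 to 0.29; edgeR quasi-likelihood adjusted p = 0.998; exact permutation p = 0.171). Apoh overlaps Prkca, a gene on the opposite strand that had 92 to 178 reads a library. A kit that does not mark strand cannot part reads from the stretch where the 2 overlap, and the length of that stretch is not reported here.

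Among the C apolipoproteins, Apoc3, an inhibitor of lipoprotein lipase, had 58, 19, 7 and 46 reads over WT1 to WT4 and 0, 25, 7 and 0 reads over KO1 to KO4. WT2 lay below KO2. A count of 0 allows up to 3 reads, which is 1.04 to 1.15 CPM in these libraries. The log2 fold change of Apoc3 was -2.08 (SE 1.07, 95% interval -4.61 to 0.46; edgeR quasi-likelihood adjusted p = 0.998; exact permutation p = 0.114). Apoc2, the obligatory activator of lipoprotein lipase, was the least variable of these 7. It stood at 18.0, 16.3, 3.93 and 14.2 CPM in WT1 to WT4 and at 1.47, 5.15, 2.84 and 4.28 CPM in KO1 to KO4. WT1, WT2 and WT4 lay close together and WT3 came between KO3 and KO4. Apoc2 had the smallest p of the 10, with a log2 fold change of -1.91 (SE 0.46, 95% interval -2.92 to -0.89; edgeR quasi-likelihood p = 0.0016 unadjusted and adjusted p = 0.905; exact permutation p = 0.0857). DESeq2 called it lower (adjusted p = 0.0216), as did edgeR's likelihood ratio test (adjusted p = 0.0151), while limma-voom with sample weights did not (adjusted p = 0.955). With WT1, WT2 and WT4 left out its log2 fold change was -0.19 (SE 0.72). Gm44805, annotated in GENCODE on the same strand over Apoc2, was not analysed here.

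Apoa4 had the widest spread. It had 105, 1084, 11 and 94 reads over WT1 to WT4 and 3, 22, 35 and 0 reads over KO1 to KO4. WT2 alone stood at 431 CPM, WT1 and WT4 at 38.5 and 34.3 CPM, and the remaining 5 libraries between 0 and 12.4 CPM. The log2 fold change was -4.56 (SE 1.70, 95% interval -8.67 to -0.45; edgeR quasi-likelihood p = 0.035 unadjusted and adjusted p = 0.998; exact permutation p = 0.0857). Without WT2 it was -2.26 (SE 1.15), and without WT1 and WT4 it was -5.34 (SE 1.82). Gm10680, an antisense gene over Apoa4, had 73, 679, 6 and 69 reads over WT1 to WT4 and 2, 12, 24 and 0 over KO1 to KO4. Reads from the stretch where this pair overlaps cannot be told apart without strand.

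Across the 7 genes that were not steady, the order of libraries repeated. They were classed by the same values, and how many other genes share this order was not counted, so the counts only describe these 7. WT3 was the lowest WT-labelled library for 7 of 7 and lay inside the range of the KO-labelled libraries for 7 of 7. WT1 and WT4 were above the highest KO-labelled library for 7 of 7, and were the 2 highest of all for 5, the exceptions being Apoa4 and Apoc2. WT2 was above the highest KO-labelled library for 4, namely Apoa1, Apoa4, Apob and Apoc2. KO2 was the highest KO-labelled library for 6, and KO3 was for Apoa4. KO2 was also the KO-labelled library with the highest summed liver markers, at 1457 CPM, of which the listed marker Cyp2e1 alone gave 453 CPM. Alb was highest there too, at 904 reads against 124 to 436 in the other KO-labelled libraries.

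Over the 10 genes, 9 had log2 fold changes under 0, with a median of -1.99 beside a median of 0.00 over the 14556 genes tested, of which 49.9% were negative. All 10 had passed the count filter. By the quasi-likelihood test of edgeR, 0 of the 10 passed at 0.05 after adjustment, where 0.0% of genes did. At an unadjusted p under 0.05 there were 2 of the 10, Apoa4 and Apoc2, beside 4.49% of genes. The labels did not overlap for 0 of the 10, beside 2.92% of genes. DESeq2 and the likelihood ratio test each called 1 of the 10 lower, beside 0.0275% of genes for either tool, and limma-voom with sample weights called 0 of 10, beside 0.0%. The largest tagwise biological coefficients of variation were those of Apoa4 (153%), Apoc3 (129%), Apob (124%), Apoa2 (114%) and Apoa1 (105%), and the steady genes had 19.0% (Apoe), 22.3% (Apoc1) and 25.5% (Apod), with 18.4% as the common value.

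The authors' deposited table lists 7 of the 10 as lower at an adjusted p under 0.05, beside 0.988% of its genes. These 7 are the genes that were not steady. In the authors' deposited table, Apoa4 has a log2 fold change of -4.57 (adjusted p = 1.08e-60), Apob -2.56 (adjusted p = 9.63e-24) and Apoa1 -2.23 (adjusted p = 2.12e-19). The authors' deposited table further gives Apoa2 at -2.12, Apoh at -1.91, Apoc3 at -2.08 and Apoc2 at -1.91, and leaves Apoc1, Apoe and Apod uncalled. The exact test of edgeR with a single dispersion shared by all genes and no count filter gave the log2 fold changes of these 10 genes to within 4.6e-10. That test gives every gene the same biological coefficient of variation, whose value without the count filter is not reported here. In the fit with the count filter the common value was 18.4%, and those of the 7 genes taken singly ran from 39.2% to 153%. Leaving out WT1 and WT4 had to raise the values of the 5 genes for which they were the 2 highest libraries. With WT1 and WT4 left out, the same exact test called 3 of the 10 lower, beside 0.2% of genes: Apoa1 (-1.20, adjusted p = 0.00394), Apoc2 (-1.52, adjusted p = 0.0149) and Apoa4 (-5.34). With WT1, WT2 and WT4 left out it called 0 of the 10, beside 0.0555% of genes called lower, and 9 of the 10 log2 fold changes were then positive.

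In edgeR's quasi-likelihood fit, leaving out WT1 and WT4 moved the log2 fold changes of Apoa2 to 0.99 (SE 1.13), of Apoh to -0.02 (SE 0.77), of Apoc3 to -0.81 (SE 1.35), of Apob to -0.98 (SE 1.53) and of Apoa1 to -1.19 (SE 1.35). WT1 and WT4 were the 2 highest libraries for these 5 genes, so leaving them out had to raise the values of these genes. Leaving out WT2 as well, which leaves WT3 as the only WT-labelled library and assumes that it varies like the others, gave 1.10 for Apoa1, 1.29 for Apoa2, 1.58 for Apob and 0.43 for Apoa4, with standard errors from 1.79 to 2.48. WT3 was the lowest WT-labelled library for these genes, so keeping it alone had to raise their values. Apoe stood at -0.33 (SE 0.25) without WT1 and WT4 and at 0.01 (SE 0.29) without all 3. The plot of fold changes sets these fits side by side.

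**Figure D2:**
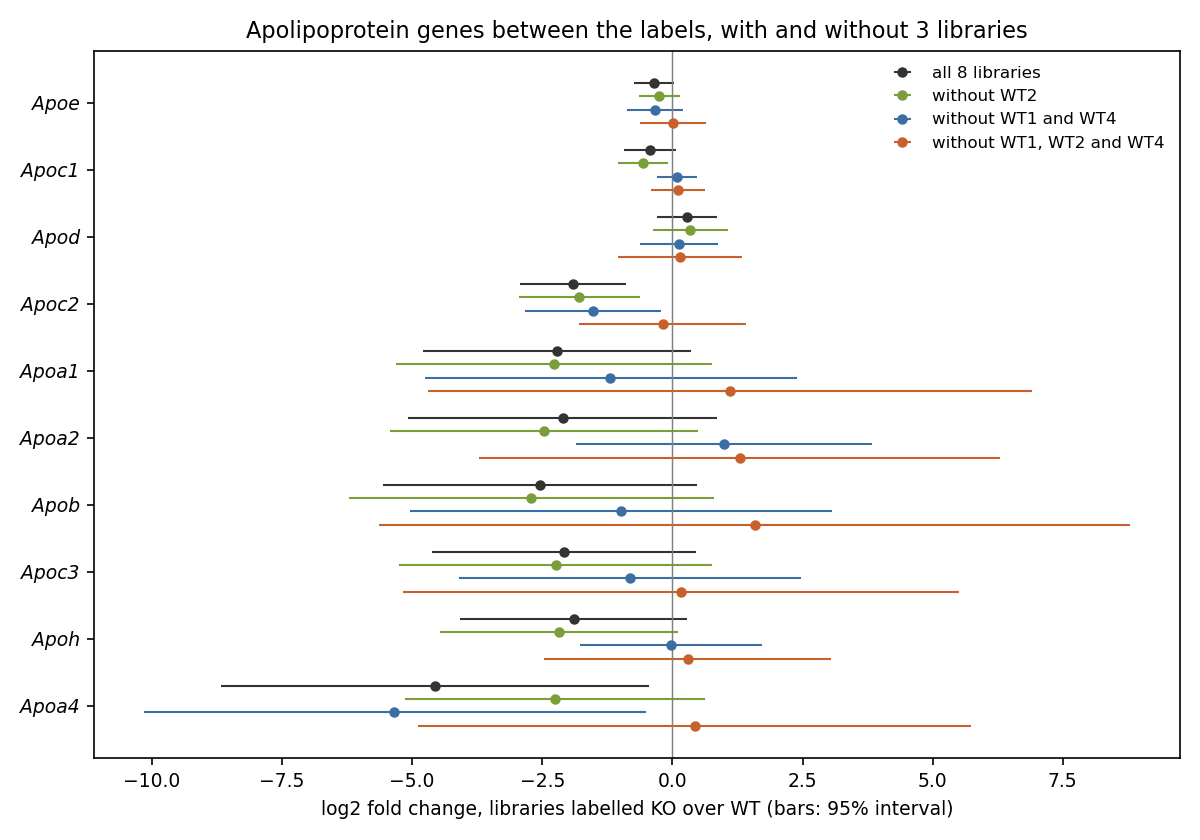
Log2 fold change of each gene, KO-labelled libraries over WT, from edgeR's quasi-likelihood fit (points) with the 95% interval (bars), for all 8 libraries and with 1, 2 or 3 WT-labelled libraries left out. Apoa2 moves from -2.11 to 0.99 without WT1 and WT4, Apoa4 from -4.56 to -2.26 without WT2, and Apoc2 stays negative at -0.19 without all 3. In each case the libraries left out were the highest for the gene named, so its value had to rise.

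The 2 high patterns differed in make-up. Among the reads of the 7 genes, Apoa4 took 72.8% in WT2 (95% exact Clopper-Pearson interval 70.5 to 75.1%), but 8.07% in WT1 (6.65 to 9.69%) and 8.26% in WT4 (6.73 to 10%). Apoa2 took 1.08% in WT2 (0.616 to 1.74%), and 17.5% (15.5 to 19.7%) and 21.3% (18.9 to 23.8%) in WT1 and WT4. KO2, on 399 reads, had 19.3% of Apoa2 (15.5 to 23.5%) and 5.51% of Apoa4 (3.49 to 8.23%). For both genes the intervals of KO2 met those of WT1 or WT4 and did not meet those of WT2. These intervals cover counting error only, and reads without molecular identifiers are not independent molecules.

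**Figure D3:**
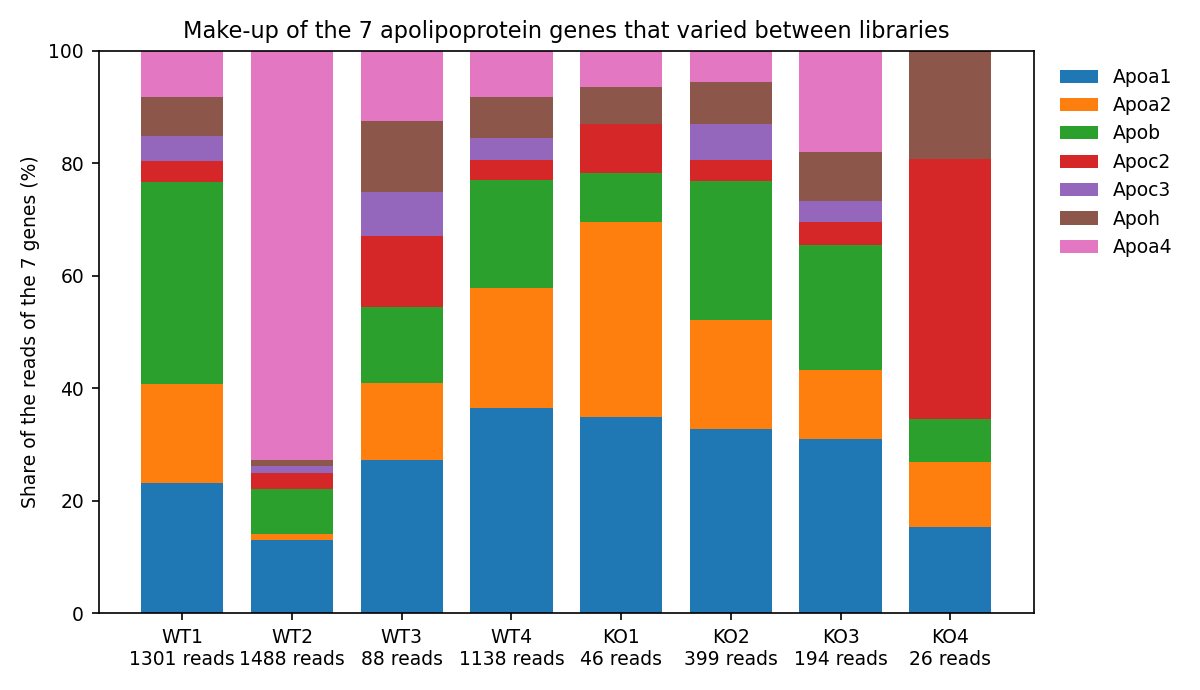
Share (%) of each of the 7 apolipoprotein genes that were not steady in the reads of those 7 genes, by library, with the number of reads under each bar. Apoa4 fills 72.8% of WT2 and between 0 and 18.0% of the other libraries, where KO1 and KO4 rest on 46 and 26 reads.

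Alb, serum albumin, was the liver marker with most reads, at 2698, 203, 158 and 2105 reads over WT1 to WT4 and 184, 904, 436 and 124 reads over KO1 to KO4. Per 100 Alb reads, Apoa2 had 8.45 reads in WT1 (7.35 to 9.68), 7.88 in WT2 (4.42 to 13.1), 7.59 in WT3 (3.84 to 13.6) and 11.5 in WT4 (10 to 13.1). In KO-labelled libraries it had 8.70 in KO1 (4.87 to 14.5), 8.52 in KO2 (6.66 to 10.8), 5.50 in KO3 (3.49 to 8.30) and 2.42 in KO4 (0.492 to 7.24). The ratio of Apoa2 to Alb thus lay between 2.42 and 11.5 per 100 while Alb itself ran from 124 to 2698 reads, and libraries of both labels were mixed in it. It was not one value, since the interval of WT4 did not meet those of WT1, KO3 and KO4, and that of WT1 did not meet that of KO4. Apoh was similar in the libraries with most Alb reads, at 3.34 in WT1, 3.90 in WT4 and 3.32 in KO2 per 100 Alb reads.

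WT2 had higher ratios for several genes. Per 100 Alb reads, Apoa4 had 534 reads in WT2 (459 to 623) and between 0 and 8.03 in the other 7 libraries. Apoa1 had 95.1 in WT2 (77.7 to 116) and between 3.23 and 19.7 elsewhere, and Apob had 59.1 in WT2 (46.8 to 74.4) and between 1.61 and 17.4 elsewhere. Apoc2 had 20.2 in WT2 (14.1 to 28.4) and between 1.66 and 9.68 elsewhere, and the interval of KO4, the highest of these (4.87 to 17.5, on 12 reads), met that of WT2. The plot against Alb reads shows Apoa2 higher where Alb is higher, and Apoa4 with WT2 far above the other libraries.

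**Figure D4:**
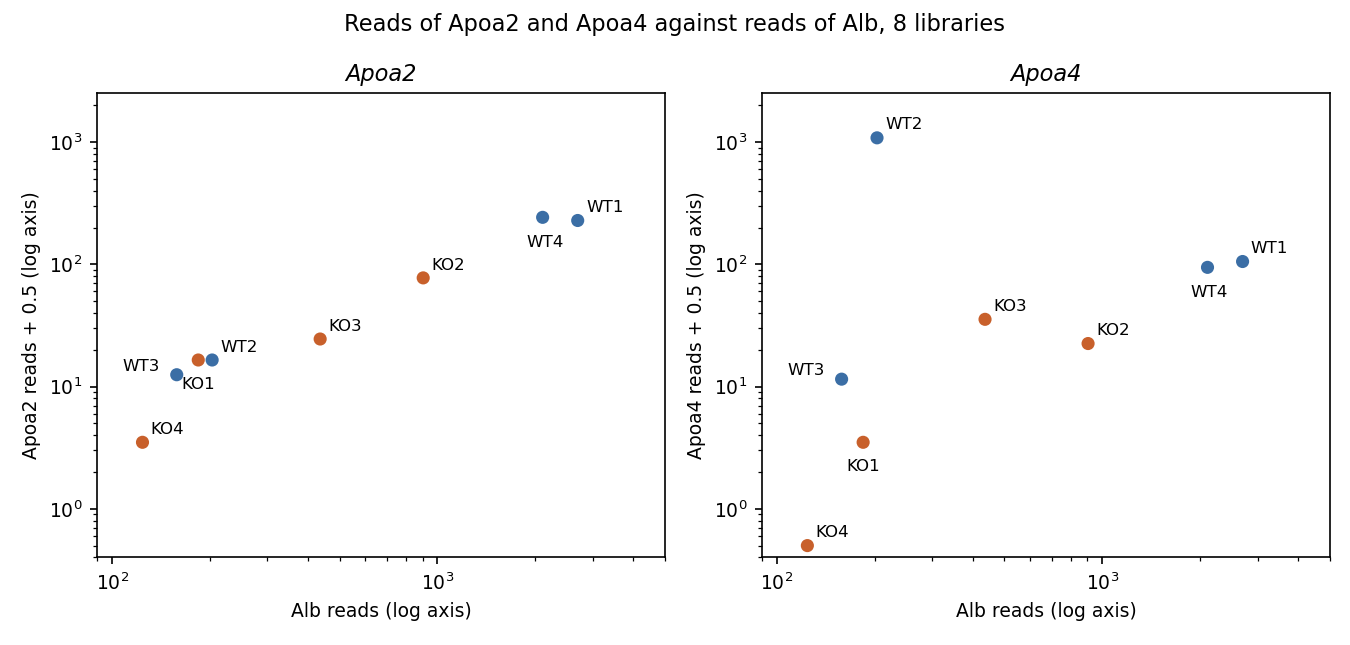
Reads of Apoa2 (left) and Apoa4 (right), each plus 0.5, against reads of Alb in the same library, both axes logarithmic, blue for WT and orange for KO. Apoa2 runs from 3 reads in KO4 to 228 in WT1 along with Alb, whereas Apoa4 in WT2 lies at 1084 reads beside 203 of Alb.

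The small intestine markers that were read showed the same library. Krt20, a keratin of gut epithelium, had 72 reads in WT2 and 1 to 5 in the other libraries. Muc13, an epithelial mucin, had 56 in WT2 and 0 to 8 elsewhere, and Vil1, the microvillus protein villin, had 42 in WT2 and 0 to 6 elsewhere. Mep1b had 33 reads in WT2 and 4 to 11 elsewhere, Lgals4 had 67 and 17 to 30, and Anpep, which other tissues also express, had 113 and 80 to 121, so that WT2 did not stand apart for it. The sum of the 6 was 152 CPM in WT2 and 42.7 to 59.8 CPM in the other 7. Anpep alone had 29.2 to 45.0 CPM over the 8 libraries, so it made up most of the sum outside WT2. Neither these sums (exact permutation p = 0.657) nor the liver sums (exact permutation p = 0.229) differed between the labels beyond their spread, where 4 against 4 libraries can reach 0.0286. No gene of the table has a second-highest value under 1.04 CPM, so a gene read in WT2 alone could not be followed, and the other 29 listed intestine markers were not analysed here. With the summed liver markers as a covariate, the log2 fold change in the quasi-likelihood fit was 0.06 for Apoa2, -0.03 for Apoc1, -0.50 for Apoh, -0.97 for Apoc3, -1.23 for Apob, -1.34 for Apoa1, -1.50 for Apoc2 and -5.11 for Apoa4. With the summed intestine markers as a covariate it was -2.49 for Apoa4, and the other 6 genes that were not steady lay between -2.72 and -1.80. Neither fit called any of the 10. The liver sum was highest in WT1 and WT4 and the intestine sum in WT2, where these genes were high, so the covariates also mark those libraries. The source of the reads was not tested.

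Other tissues could be followed in the same way. Pancreas had 2 of 14 markers in the table, Cela1 and Cela2a, with sums of 27.9 to 43.7 CPM in WT-labelled libraries and 19.9 to 47.1 CPM in KO-labelled ones. Progenitor and fibroblast markers, led by Col3a1 and Dpt, summed to between 3736 and 4651 CPM and between 3256 and 4496 CPM. Of 12 markers of skin and mammary epithelium, 2 were in the table, Krt10 and Cdh1. They summed to between 4.29 and 13.1 CPM in WT-labelled libraries and between 1.47 and 2.49 CPM in KO-labelled ones (exact permutation p = 0.0286, the smallest possible, not adjusted for the other lists), and Cdh1, a cadherin of epithelia in general, had 23 of its 43 reads in WT2.

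Genes with the most similar profile were found by the mean absolute difference of log2 CPM, centred on each gene's mean, over the 8 libraries. For Apoa2 they were Mup15 (0.26), Mup-ps22 (0.27), Plg (0.27), Mup10 (0.28) and Mup8 (0.29). Plg, plasminogen, is a plasma protein of liver, and the Mup genes are near-identical copies whose single counts are uncertain. Apoh was nearest to Slc27a2 (0.25), Fbp1 (0.30), Gm5424 (0.41), Mup18 (0.43) and Mup1 (0.43). Apoc3 was nearest to Hnf4a (0.46), Cyp2d26 (0.50), Mup19 (0.56), Gm5424 (0.57) and Mup1 (0.60).

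For the genes of this class that were also high in WT2, Fabp1 and Hnf4a were among the nearest. Apoa1 lay closest to Fabp1 (0.38), Hnf4a (0.45), Mup17 (0.57) and Mup1 (0.57). Fabp1, a fatty acid carrier, is made in liver and in small intestine alike, and it had 189 reads in WT2 beside 152 in WT1. Apob lay closest to Hnf4a (0.47), Cps1 (0.52), Fabp1 (0.59) and Fga (0.65). Apart from Gm10680 (0.18), which overlaps it on the opposite strand, Apoa4 lay no nearer to a gene than Fabp1 (0.81), and Pigr (1.13) and Hnf4a (1.23) were also near. These distances are descriptions over 8 libraries that differ in the same few samples.

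The genome places several of these genes side by side. In the GENCODE order, Apoc2, Apoc4, Apoc1 and Apoe are neighbours on chromosome 7, and Apoa1, Apoc3, Apoa4 and Apoa5 on chromosome 9. Neighbours did not share one profile. Apoe and Apoc1 were steady, while Apoc2 was between the classes, and Apoc4 had 29, 0, 4 and 28 reads over WT1 to WT4 and 1, 6, 4 and 4 over KO1 to KO4. On chromosome 9, Apoa5, which promotes clearance of triglyceride, had 75, 8, 5 and 83 reads over WT1 to WT4 and 2, 20, 9 and 0 over KO1 to KO4. It thus had WT1 and WT4 high and WT2 low, as Apoa2 did, beside Apoa4 with its peak in WT2.

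Start-site windows of 4 of the genes are shown because they stand for the 4 profiles: Apoa2 (high in WT1 and WT4), Apoa4 (high in WT2), Apob (high in all 3) and Apoe (steady). They come from RefSeq on build GRCm38.p6 and hold 250 bases before and 50 after a gene's start, 5′ to 3′ on the gene's strand, with TATAAA in capitals; the table holds 8 of the 10 genes, in 11 windows, and where a gene has several the one listed first is printed.
Apoa2, chr1:171224804-171225103, plus strand: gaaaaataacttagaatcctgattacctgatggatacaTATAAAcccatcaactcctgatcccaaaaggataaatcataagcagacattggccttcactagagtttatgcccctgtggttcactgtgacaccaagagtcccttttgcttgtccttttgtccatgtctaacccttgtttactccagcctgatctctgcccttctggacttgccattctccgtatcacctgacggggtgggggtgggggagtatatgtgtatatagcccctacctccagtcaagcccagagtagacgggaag
Apob, chr12:7977427-7977726, plus strand: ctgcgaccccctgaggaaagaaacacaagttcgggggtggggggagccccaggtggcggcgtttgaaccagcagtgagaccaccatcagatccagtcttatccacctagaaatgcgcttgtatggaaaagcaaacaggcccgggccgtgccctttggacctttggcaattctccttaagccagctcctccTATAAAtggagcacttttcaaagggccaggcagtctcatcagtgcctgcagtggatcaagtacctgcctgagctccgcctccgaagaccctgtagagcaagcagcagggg
Apoa4, chr9:46240594-46240893, plus strand: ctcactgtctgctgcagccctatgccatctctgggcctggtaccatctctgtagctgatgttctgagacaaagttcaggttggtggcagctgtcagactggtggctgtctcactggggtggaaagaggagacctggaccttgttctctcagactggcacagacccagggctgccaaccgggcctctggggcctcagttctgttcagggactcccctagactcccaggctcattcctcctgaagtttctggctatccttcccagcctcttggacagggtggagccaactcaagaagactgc
Apoe, chr7:19699139-19699438, minus strand: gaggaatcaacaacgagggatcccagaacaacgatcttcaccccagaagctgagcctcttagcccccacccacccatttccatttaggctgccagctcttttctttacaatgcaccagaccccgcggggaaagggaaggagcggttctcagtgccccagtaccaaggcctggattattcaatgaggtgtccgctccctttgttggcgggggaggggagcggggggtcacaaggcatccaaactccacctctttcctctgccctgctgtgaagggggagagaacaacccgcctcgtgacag

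The letters TATAAA, searched on both strands, were found in a window of Apoa2 (first base at -212), of Apob (at -60) and, in a further window that is not printed, of Apoe, and 13.6% of 32851 windows of this length hold them. Motifs of a kind bound by liver and gut factors were searched on both strands as well. CAAAGTCCA and CAAAGGTCA, of the HNF4 type, are in 0.475% and 0.478% of windows, and GTTAATNAT, of the HNF1 type, is in 0.801%. None of these 3 strings was in the 11 windows of the 8 genes. That says only that these letters are absent from these windows.

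Beyond the 10, further apolipoprotein genes were read. Of 25 genes listed as other apolipoproteins and their close partners, 17 were in the table and 7 passed the count filter; 3 had log2 fold changes above 0 and 4 below, the median was -0.06, and 0 were past the threshold. Apol6, an intracellular member, had 1252 to 1863 reads and a value of 0.16 (SE 0.16). Apoo and Apool, which sit in the mitochondrial inner membrane, had 0.24 (SE 0.37) and 0.12 (SE 0.23). Apobr, a receptor for Apob-containing particles, had -0.43 (SE 0.26), Apol10b -0.08 (SE 0.32) and Clu, or clusterin, -0.06 (SE 0.27). Of those under the count filter, the authors' deposited table calls Apoa5 (-2.51), Apoc4 (-2.05) and Apon (-1.62) lower. Apon had 19, 2, 4 and 17 reads over WT1 to WT4 and 0, 10, 4 and 0 over KO1 to KO4, again with WT1 and WT4 high. Apol7a, Apol7b, Apol7e, Apol9a and Apol9b had 27 to 67 reads each over the 8 libraries.

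Genes for assembling and secreting lipoproteins followed the same libraries in part. Of 9 tested, 1 had a positive and 8 a negative value, with a median of -0.22, and 0 passed. Mttp, the transfer protein that loads lipid onto Apob, had 17, 141, 13 and 24 reads over WT1 to WT4 and 12, 14, 17 and 8 over KO1 to KO4. WT2 was thus its one high library, as for Apoa4 (log2 fold change -2.03, SE 0.96). Hnf4a, a nuclear receptor of liver and gut, had 48, 18, 1 and 33 reads over WT1 to WT4 and 0, 12, 4 and 0 over KO1 to KO4 (-2.68, SE 1.13). P4hb, protein disulfide isomerase and a partner of Mttp, had -0.31 (SE 0.14) on 680 to 976 reads.

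Receptors, lipases and cholesterol export genes had small values. Of 12 lipoprotein receptors and partners tested, 4 were positive and 8 negative, with a median of -0.06 and 0 past the threshold. Lsr, the lipolysis-stimulated receptor, had 25 to 35 reads in WT-labelled libraries and 16 to 27 in KO-labelled ones (log2 fold change -0.63, SE 0.25). Sdc1 had -0.48 (SE 0.23) and Lrpap1, a chaperone of the receptor family, -0.20 (SE 0.14). Of 9 lipases and cofactors tested, 1 was positive and 8 negative, with a median of -0.22 and 0 past the threshold. Lipa, the lysosomal lipase, had -0.26 (SE 0.14) and Pltp, the phospholipid transfer protein, -0.22 (SE 0.12). Of 12 genes of cholesterol efflux and its nuclear receptors, 4 were positive and 8 negative, with a median of -0.07 and 0 past the threshold. Npc2, a lysosomal cholesterol carrier, had -0.41 (SE 0.14), Soat1 -0.33 (SE 0.25) and Nr1h2 0.18 (SE 0.17). All adjusted p in these lists exceeded the threshold in edgeR's quasi-likelihood test.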

How the data were processed

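Libraries were built from poly(A) RNA with the NEBNext Ultra kit, per the labels' protocols; this kit does not mark strand. FastQC, Bowtie2, edgeR and the build mm9 appear in the submitters' processing notes, without roles or versions. Which counter was used is not given in the sources at hand. Raw counts were deposited by the authors for each Ensembl gene and library; they are whole and not normalized. The authors also deposited 1 comparison, whose log2 fold changes, log2 mean expression, p-values and adjusted p-values have the column names that edgeR writes, per the file headers. Groups and replicate numbers come from the sample titles. No library was a copy of another (smallest chi-square per gene 4.45). The labels name a mouse for each sample, and p-values measure the spread between these samples.

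The counts were fitted with edgeR 4.0.16 (R 4.3.3): TMM scaling, filterByExpr (14556 genes), robust quasi-likelihood F test, label as the only term, Benjamini-Hochberg over all genes at 0.05. Each standard error is the log2 fold change divided by the root of F, and intervals are 95%. The fit was tested on simulated data. Single values were compared by exact two-sided permutation, for genes on log2(CPM + 0.5). The common dispersion was 0.0337. Exon lengths, overlaps and gene order are from GENCODE M21. Like the RefSeq promoter windows, it is of build GRCm38 and not of the mm9 that the submitters name. Coordinates are printed only for those windows. Alternatives were other scalings and filters, DESeq2 1.42.0, likelihood ratio and exact tests, limma-voom (limma 3.58.1), a replicate block, marker covariates and libraries left out.

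The 10 genes, gene lists, markers and motifs were chosen with earlier results of these data known. Named were the 10 genes, the other apolipoproteins, up to 3 genes per pathway list with the smallest p, up to 5 markers for liver and intestine and 2 for other tissues by reads, and, for members high in single libraries with over 100 reads, the 5 genes nearest in profile. A few of these are not reported here. Vil1 was chosen after its values were seen. Cyp2e1, Serpina1b, Serpina1a and Serpina1c come after Alb in total reads. The 3 serpins are near-identical copies, and Cyp2e1 was highest in KO2 (1319 reads). These genes did not rise and fall with Alb in all libraries. In KO4, Cyp2e1 had 746 reads and Serpina1b 301, beside 124 of Alb. In KO3 they had 262 and 60, beside 436 of Alb. The liver sum, 604 CPM in KO4 and 486 CPM in KO3, thus rests in part on them.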

Additional observations from a re-analysis of the deposited data

Results flagged for a closer look

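Of 24 sets of 4 libraries tested (10 genes and 2 marker sums in each label), 3 had 1 library far from the other 3. The limit used gives about 1 in 20 for independent sets picked without knowledge of the data. These genes and lists were picked with earlier results known, and they share libraries, so that rate does not apply to them. Apoa4 in libraries labelled WT had its highest library, WT2, at 431 CPM, and the gap to the next took 0.919 of the range. The summed small intestine markers in libraries labelled WT reached 152 CPM, again in WT2 (0.844 of the range). The summed liver markers in libraries labelled KO reached 1457 CPM in KO2 (0.878 of the range), with 453 CPM of it from Cyp2e1.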

How the results depend on the processing

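The count of apolipoprotein genes past the threshold was 0 in edgeR's quasi-likelihood test under every scaling, filter, covariate and left-out library tried, and the choice of test changed it. DESeq2 called 1 of the 10 and 36 of all genes, the likelihood ratio test 1 and 58, and the exact test with a shared dispersion 7 and 224. Alternatives chosen after the data were seen were the exact test without a count filter (7 and 436), also without WT1 and WT4 (3 and 201), without WT2 (7 and 409) and without all 3 (0 and 88). Leaving out 1 library gave 0 to 50 genes in all, the 50 without KO3. Keeping WT3 as the only WT-labelled library had to raise the values of the 7 genes that were not steady, since it was their lowest WT-labelled library. Without WT1, WT2 and WT4 the sign turned for Apoa1 (1.10), Apoa2 (1.29), Apoa4 (0.43), Apob (1.58), Apoc1 (0.11), Apoc3 (0.16), Apoe (0.01) and Apoh (0.30). In the exact test the values were 1.10, 1.28, 0.42, 1.58, 0.10, 0.16, 0.00 and 0.29 in that order. Leaving out WT1 and WT4 had to raise Apoa2 and Apoc1, for which they were the 2 highest libraries. Without them the sign turned for Apoa2 (0.99) and Apoc1 (0.09), with the same values in the exact test. With liver markers as a covariate it turned for Apoa2 (0.06), and Apob (-1.23), Apoa1 (-1.34), Apoc3 (-0.97) and Apoh (-0.50) came nearer to 0. With intestine markers Apoa4 did (-2.49). Both covariates peak in libraries where these genes are high, so they also mark those libraries. With 1 library left out, Apod ran from -0.02 (without KO1) to 0.46 (without KO3), Apoc3 from -3.78 (without KO2) to -1.65 (without WT1), Apob from -3.69 (without KO2) to -1.76 (without WT1), Apoa1 from -3.18 (without KO2) to -1.81 (without WT4), Apoa2 from -3.14 (without KO2) to -1.58 (without WT4), Apoh from -2.59 (without KO2) to -1.45 (without WT1) and Apoa4 from -5.40 (without KO3) to -2.26 (without WT2). The log2 difference of the summed liver markers (-0.91) was 0.17 without WT1 and WT4, where that sum was highest. For the intestine markers the difference (-0.35) ran from -0.57 to 0.05 with 1 library left out, the latter without WT2, where their sum was highest. Without Anpep, the most read of the intestine markers, it was -0.69. Beyond the libraries named, the cause of these changes was not tested. The replicate block called 0 genes, with Apoc2 at -1.85. Same-numbered libraries did not deviate together (correlations from -0.401 to -0.202 over 8982 genes), which gave no sign of pairing by number. Differently numbered libraries were not compared, so whether the numbers pair the samples was not settled.

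With 4 libraries a label, the 95% interval of Apoa4 spans from -8.67 to -0.45 and that of Apob from -5.56 to 0.47. Values of Apoc3, Apoh and Apoc2 rest on under 100 reads a library.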

Other observations

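WT1 and WT4, the libraries with high liver markers, did not hold the 7 varying apolipoprotein genes in one ratio. Apob took 36.0% of their reads in WT1 (95% exact interval 33.4 to 38.7%) and 19.3% in WT4 (17.1 to 21.7%), while Apoa1 took 23.2% in WT1 (20.9 to 25.6%) and 36.5% in WT4 (33.7 to 39.3%). Apoc2, Apoc3 and Apoh took similar shares in both, at 3.77% and 3.43%, 4.46% and 4.04%, and 6.92% and 7.21%.

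In KO4, the library with fewest reads of these genes, Apoc2 made up 12 of 26 reads, or 46.2% (26.6 to 66.6%), against 2.76% to 12.5% in the other 7 libraries. In KO3, Apoa4 took 18.0% (12.9 to 24.2%), above its share in KO2 of 5.51% (3.49 to 8.23%).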
